A study of Mus musculus with 9 samples.

Results

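Neutrophils isolated from papillomas, the benign lesions of chemically treated mouse skin, were compared with neutrophils from the skin around them. The comparison rests on 5 of the 9 arrays of the series, the 3 titled papilloma and the 2 titled papilloma skin, and was read over all genes of the array. All mice were FVB/N, and the methods give them as female. They had received the carcinogen DMBA in weeks 6 and 13 of life, together with the tumor promoter PMA repeatedly. PMA was given from week 1 until week 18 to 20, a count that the methods do not give as weeks of age. The skin that served as control had thus been treated as well. Gr-1bright cells expressing Ly6G were sorted from both tissues, and the RNA on an array came from a pool of animals, whose spread is what the p-values measure. Papillomas had been digested with collagenase IV, dispase II and DNase I, and skin with collagenase IV alone, so that digestion and lesion cannot be told apart. The remaining 4 arrays, 2 of tumor and 2 of tumor skin, entered the fit for its estimate of the spread and were used for 1 comparison between stages.

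Before the results, 3 facts of the arrays bear on how they can be read. On the scanner file of papilloma skin 1, 95.0% of spots were well above background and the slope of the spike-in signals was 0.678, against 49.9% to 59.0% and slopes of 1.04 to 1.06 on the other 4 arrays of this comparison. The deposited value table ranked differently from its own scanner files in some columns. Across 55155 probes, Spearman's rho of the column papilloma skin 1 with its own file was 0.588, and it was highest, at 0.924, with the file of tumor 2. The column papilloma 2 came nearest to the file of papilloma 3 (0.981), and the column papilloma 3 to the file of papilloma 2 (0.959). Of the tumor stage arrays, which enter the fit, tumor skin 1 and tumor 1 had spike-in slopes of 0.876 and 0.894, and the column tumor 1 had a rho of 0.827 with its own file and of 0.947 with that of tumor 2. Of the variance within groups in the value table, 97.8% lay in 3 of the 5 dimensions that 9 columns and 4 groups leave. The limma fit of the table counted all 5 of these as degrees of freedom, whereas the same fit with the array slide as a block counted 3. A call that is said to be kept was therefore made in all of 4 fits: the fit of the table as deposited, the fit with slide as a block, that fit with the slides of papilloma 2 and 3 exchanged, and the fit without papilloma skin 1. All 4 use the same table, and the fit without papilloma skin 2 is not among them. The fit with exchanged slides was chosen after the data were seen. It shared 399 calls with the fit as deposited, and 397 were kept, so that it alone sets nearly all kept calls.

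Neutrophils are short-lived granulocytes that leave the bone marrow with most of their granule proteins already made. In tissue they release chemokines and cytokines, take up particles, and depend on glycolysis more than on respiration. Low oxygen, growth factors and bacterial products change their transcription, and neutrophils of growing lesions have been studied for effects on blood vessels, matrix and T cells. Papillomas are folded outgrowths of a thickened epidermis on a vascular core, so that a digest of this tissue also holds keratinocytes, fibroblasts, endothelial cells and pericytes. The methods state that cells were stained for CD45, which these cells lack, and for Gr-1 and Ly6G before the sort, and that the sorted cells were nearly pure.

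In papilloma, genes of glycolysis and the response to low oxygen, of the extracellular matrix, of pericytes and smooth muscle and some genes of keratinocytes were higher than in papilloma skin, and genes of neutrophil granules, eosinophils and antibody-secreting cells were lower. Of 18817 genes whose log2 level averaged 6 or more, 844 were called higher in papilloma, which is 4.49%, and 407 were called lower, which is 2.16%. The counts of list members given below are to be read beside these shares. To be called, a gene needed a limma p of 0.05 or less after Benjamini-Hochberg adjustment over 34797 genes and a difference of 1 or more on the log2 scale. A total of 397 calls were kept, 288 of them higher (1.53% of genes) and 109 lower (0.579%). All 1251 called genes had papilloma columns on 1 side of both papilloma skin columns, as did 41.7% of the genes at this level. The same sign in papilloma 1 against papilloma skin 1 and in papilloma 2 against papilloma skin 2 follows from this and is no further support. The largest differences were falls, since 73 genes fell and 29 rose more than 8-fold.

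**Figure D1:**
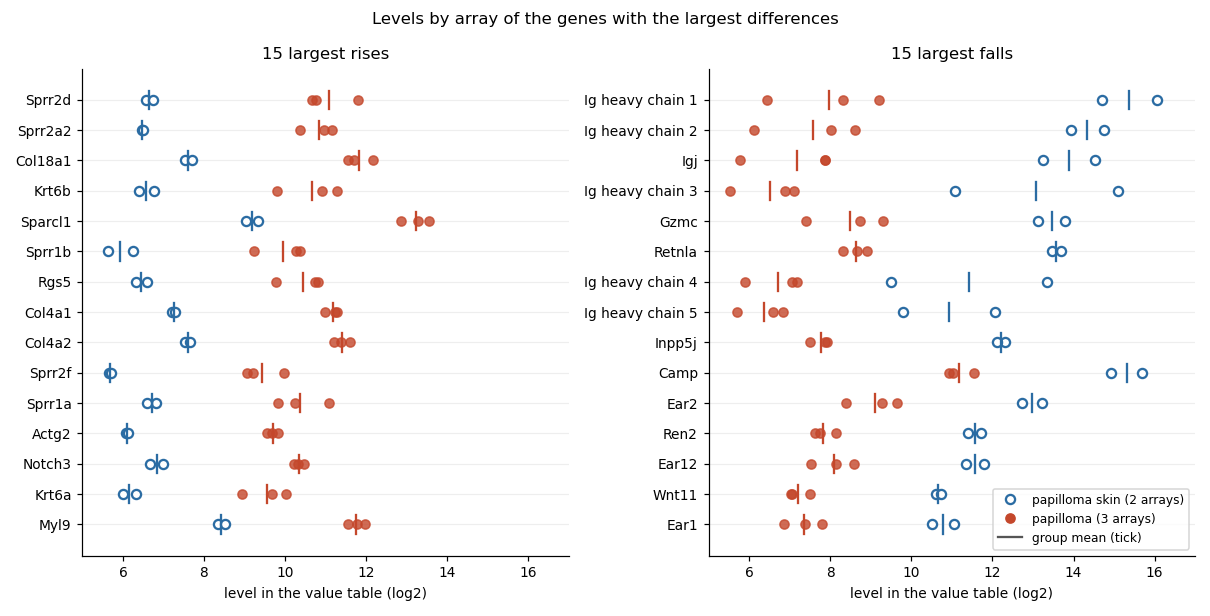
Log2 level in the value table (x axis) of the 15 genes with the largest rise and the 15 with the largest fall among called genes, without clone and Ensembl identifiers, 1 row a gene. Open circles are the 2 papilloma skin arrays, filled circles the 3 papilloma arrays and ticks the group means; in no row do the groups overlap, and the arrays of papilloma skin lie farthest apart for the immunoglobulin transcripts, at 11.07 and 15.09 in the row named Ig heavy chain 3.

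The 15 largest rises fell into a few families. They held 5 small proline-rich proteins (Sprr2d, Sprr2a2, Sprr1b, Sprr2f and Sprr1a) and 2 keratins (Krt6b and Krt6a) of keratinocytes, 3 collagens (Col18a1, Col4a1 and Col4a2) of basement membranes, and 4 genes of contractile cells around vessels (Rgs5, Actg2, Notch3 and Myl9). The last was Sparcl1, a matricellular protein. Of the 15 largest falls, 5 were immunoglobulin heavy chain transcripts that the array names by accession only, and Igj encodes the chain that joins secreted antibody. The others were the eosinophil ribonucleases Ear2, Ear12 and Ear1, the granzyme Gzmc, the antimicrobial granule peptide Camp, the secreted factor Retnla, and Inpp5j, Ren2 and Wnt11. Of these 30 genes, 25 kept their call. The exceptions were Sprr1b, Sprr1a and 3 of the immunoglobulin transcripts.

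Transcripts of granule proteins were lower. These proteins, which were not measured, are the enzymes, proteases and antimicrobial peptides that neutrophils store during their development in the marrow. Of 20 listed genes at this level, 12 fell, 7 of them in all 4 fits, and none rose. The median log2 fold change of the list was -1.39, against 0.0088 over all genes at this level. The cathelicidin Camp, whose peptide kills bacteria, stood at log2 levels of 15.68 and 14.93 in papilloma skin 1 and 2 and at 10.94, 11.04 and 11.54 in papilloma 1, 2 and 3. Every papilloma array was thus lower than both skin arrays, by far more than the spread within either group, and Camp fell by 4.13 on the log2 scale (SE 0.32, limma adjusted p = 0.000424). Ngp, a granule protein of the same family, had levels of 13.98 and 13.66 in papilloma skin and of 10.18, 10.68 and 10.79 in papilloma. Ngp fell by 3.27 (SE 0.28, limma adjusted p = 0.000588), and its groups did not overlap.

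Transcripts of several other granule contents fell. The lysozymes Lyz2 and Lyz1, which split bacterial cell walls, fell by 2.98 and 2.23 on the log2 scale, the collagenase Mmp8 fell by 1.95, and haptoglobin (Hp), which binds free hemoglobin, fell by 1.27, all with the call kept. Lactoferrin (Ltf), which binds iron, fell by 2.46, with an limma adjusted p of 0.0602 once the slides of papilloma 2 and 3 were exchanged. Cybb, the catalytic subunit of the NADPH oxidase that makes superoxide, fell by 2.10. For Cybb the scanner files gave 0.13 with ComBat and -2.72 over the 6 arrays, of all 9, whose spike-in slope was near 1. These 6 are papilloma 1, 2 and 3, papilloma skin 2, tumor 2 and tumor skin 2. Their papilloma contrast thus rests on papilloma skin 2 alone for the skin. With ComBat all genes at this level had a median of 0.51.

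Some transcripts for proteins of the primary granules, which are made first, fell in the table, but their calls were not kept. Myeloperoxidase (Mpo) stood at 9.51 and 7.77 in papilloma skin 1 and 2 and at 6.38, 5.93 and 6.76 in papilloma. The difference of -2.28 (SE 0.47, limma adjusted p = 0.0243) thus rested in part on papilloma skin 1, and without that array it was -1.41 (limma adjusted p = 0.0722). Cathepsin G (Ctsg) and proteinase 3 (Prtn3) fell by 2.23 and 1.35, while elastase (Elane), another primary protease, had a log2 fold change of 0.48 (limma adjusted p = 0.197). The gelatinase Mmp9 and lipocalin 2 (Lcn2) had changes of -0.31 and -0.15 (limma adjusted p of 0.633 and 0.778).

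Of 27 transcription factors of the lineage, 3 rose (2 kept) and 2 fell (1 kept), with a median of 0.15. Of the falls, Cebpe, which drives secondary granule genes, fell by 1.70 (SE 0.25, limma adjusted p = 0.00689; 0.0711 with slide as a block and the slides exchanged). Gata1, a factor of eosinophils, mast cells and red cell precursors, fell by 2.07 and kept its call. The transcripts of the calcium-binding proteins S100a8 and S100a9, which fill the neutrophil cytosol, hardly moved. S100a9 stood at 18.52 and 18.58 in papilloma skin and at 18.54, 18.45 and 18.54 in papilloma, a difference of -0.04 (SE 0.11, limma adjusted p = 0.897). Ly6g, the antigen of the sort, stood at 10.27 and 10.99 in papilloma skin and at 9.30, 9.70 and 9.66 in papilloma. Its groups did not overlap, and its difference of -1.08 (SE 0.30, limma adjusted p = 0.072) did not pass the test.

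Genes of glycolysis and of the response to low oxygen rose. Glycolysis splits glucose for energy without oxygen, and most of its enzymes, together with enzymes that sense oxygen, are targets of the hypoxia-inducible factors. Of 41 listed genes, 22 rose, 16 of them in all 4 fits, and none fell, with a median of 1.24. The scanner files gave a median of 1.81 with ComBat, where all genes at the table's level minimum had 0.51. Over the 6 arrays whose spike-in slope was near 1, with papilloma skin 2 alone for the skin, they gave 1.35. All genes had 0.035 there. Hexokinase 2 (Hk2), which traps glucose in the cell, had levels of 9.60 and 9.50 in papilloma skin and of 12.69, 12.60 and 12.60 in papilloma. Both groups were tight and lay far apart, and Hk2 rose by 3.08 (SE 0.11, limma adjusted p = 4.89e-05), or 8.46-fold. The oxygen-sensing hydroxylase Egln3 stood at 9.62 and 9.84 against 12.54, 12.75 and 12.85, and rose by 2.98. Of the steps that follow hexokinase, Pfkl rose by 2.17, Tpi1 by 2.20, Pgk1 by 1.30 and Eno2 by 2.52, and the regulator Pfkfb3 rose by 1.97, all kept. The oxidase Ero1l (2.89), the collagen hydroxylase P4ha1 (2.12) and the mitophagy receptor Bnip3 (2.10) rose likewise. The calls of lactate dehydrogenase (Ldha, 1.74), the glucose transporter Slc2a1 (1.72) and Gapdh (1.13) were not kept. The array places its probe for Pgk1 on chromosome 3, while RefSeq has this gene on X. Of its 8 probes for Gapdh, most lie on chromosome 6, where RefSeq has the gene, and the others on 7 and 8. Other sequences may thus share the signal of Pgk1 and of some Gapdh probes. Hif1a itself had a change of 0.53 (SE 0.18, limma adjusted p = 0.132), and Vegfa, with 0.97 (limma adjusted p = 0.00535), lay just under the fold threshold.

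**Figure D2:**
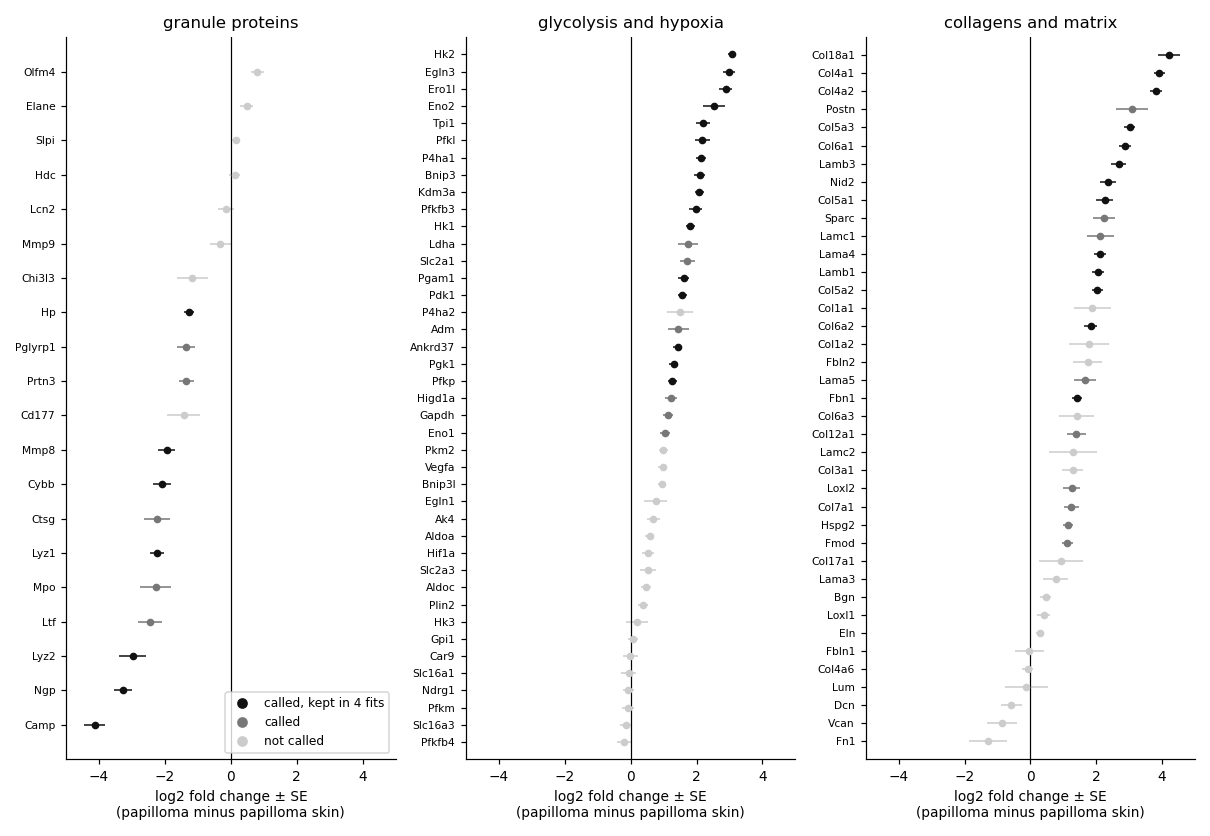
Log2 fold change of papilloma minus papilloma skin (x axis), with its limma SE as a bar on either side, for the members of 3 gene lists whose log2 level averaged 6 or more. Black marks calls kept in 4 fits, dark grey other calls and light grey genes not called; granule proteins lie mostly left of 0, glycolysis and hypoxia genes and matrix genes mostly right of it.

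The promoters of these genes are shown for the letters ACGTG, the core that hypoxia-inducible factors bind. Of 27025 RefSeq promoters (build GRCm38.p6), 16.6% hold it on either strand in the 250 bases before the gene's start. Of the 22 genes of this list that rose, 21 had a promoter in the table, and 10 of these (47.6%) held the motif, as did 8 of 15 (53.3%) of the listed genes that were not called. The motif is thus as common in members that were not called. Shown in full are Hk2 (chr6:82774455-82774704, minus strand) and Bnip3 (chr7:138909507-138909756, minus strand), since they rose in all 4 fits and hold the motif. Capitals mark it on either strand, with CACGT as its reverse complement, and in Bnip3 both strands overlap in the palindrome CACGTG.
Hk2: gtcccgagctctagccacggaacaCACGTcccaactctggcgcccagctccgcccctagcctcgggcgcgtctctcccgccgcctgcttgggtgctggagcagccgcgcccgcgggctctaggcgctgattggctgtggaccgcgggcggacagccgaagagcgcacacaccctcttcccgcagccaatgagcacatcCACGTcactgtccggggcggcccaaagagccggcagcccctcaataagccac
Bnip3: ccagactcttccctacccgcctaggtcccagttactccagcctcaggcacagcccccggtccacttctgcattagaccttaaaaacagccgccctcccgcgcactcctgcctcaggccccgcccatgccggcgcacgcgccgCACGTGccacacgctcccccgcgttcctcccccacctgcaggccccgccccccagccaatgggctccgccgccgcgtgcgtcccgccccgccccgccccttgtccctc

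A list of 36 genes of oxidative stress had 2 rises (5.56%) and 3 falls (8.33%), against 4.49% and 2.16% of all genes. The falls were Tkt, G6pdx and Taldo1, which as background are enzymes of the pentose phosphate pathway, a route from glucose to NADPH. Transketolase (Tkt) stood at 13.35 and 13.39 in papilloma skin and at 11.77, 11.95 and 11.76 in papilloma, and fell by 1.54 (SE 0.13, limma adjusted p = 0.000588), a call that was kept. G6pdx, the first enzyme of the pathway, fell by 1.47 (limma adjusted p = 0.00844) and Taldo1 by 1.06 (limma adjusted p = 0.0208), neither kept. Taldo1 had 0.23 in the scanner files scaled to the 75th percentile, where all genes at the level minimum had a median of 0.615. Pgd, a further enzyme of the pathway on the list, had -0.83 (limma adjusted p = 0.066). Osgin1 was among the rises with 1.66.

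Matrix genes rose, among them those of basement membranes, the sheets of collagen IV, laminin and nidogen beneath epithelia and around vessels. Of 39 listed genes, 22 rose, 13 of them in all 4 fits, and none fell, with a median log2 fold change of 1.41. Col4a1, a chain of collagen IV, had levels of 7.21 and 7.30 in papilloma skin and of 11.29, 10.99 and 11.22 in papilloma. The papilloma arrays were all far above the skin arrays, and Col4a1 rose by 3.91 (SE 0.17, limma adjusted p = 9.15e-05). Its partner chain Col4a2, whose gene lies next to it on chromosome 8, rose by 3.80, and Col18a1, the source of endostatin, by 4.2. The laminin chains Lamb3 and Lamb1 rose by 2.68 and 2.06, the nidogen Nid2 by 2.35, and the fibrillar collagen chain Col5a3 and the microfibrillar Col6a1 by 3.01 and 2.88, all kept. Postn, a matricellular protein of wounds, and Lamc1 rose by 3.09 and 2.12 and were not kept. The interstitial collagen Col1a1 had a change of 1.88 (SE 0.57, limma adjusted p = 0.097), the proteoglycan Dcn of -0.58 (limma adjusted p = 0.347) and fibronectin (Fn1) of -1.28 (limma adjusted p = 0.249).

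Markers of cells that make such matrix moved with these genes. Of 13 listed genes of smooth muscle and pericytes, the contractile cells of vessel walls, 10 rose, and all 10 calls were kept. Rgs5, a G protein regulator of pericytes, stood at 6.31 and 6.59 in papilloma skin and at 9.78, 10.81 and 10.74 in papilloma, and rose by 3.99 (SE 0.37, limma adjusted p = 0.0009). Notch3, a receptor of vascular smooth muscle, had levels of 6.68 and 7.0 against 10.32, 10.22 and 10.47, and rose by 3.50. Of these, Cspg4 rose by 1.85, smooth muscle actin (Acta2) by 1.30 and Tagln by 1.75, and Pdgfrb, the receptor that recruits pericytes and a member of the fibroblast list, rose by 3.23. Summed over the list, the level was 12.1 to 12.4 in papilloma skin and 14.1 to 14.2 in papilloma, on the log2 scale. Their part in the matrix result was not tested. In bulk samples, more cells of a type and more RNA per cell cannot be told apart.

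Endothelial and fibroblast markers gave less firm calls. Of 18 endothelial genes 10 rose, with a median of 1.55, but only Pecam1, which neutrophils express as well, kept its call. Cdh5, the cadherin of endothelial junctions, stood at 7.18 and 6.15 in papilloma skin and at 9.68, 8.95 and 9.08 in papilloma. Its rise of 2.57 had a limma adjusted p of 0.0135, which became 0.0898 with slide as a block and the slides exchanged. Those 6 arrays of full slope gave the endothelial list a median of 3.76. Of 24 fibroblast genes 7 rose and 1 fell, and Pdgfrb alone was kept.

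Part of the keratinocyte genes rose, among them genes of the cornified layer of the epidermis. Small proline-rich proteins and late cornified envelope proteins are crosslinked by transglutaminase into the envelope of dying keratinocytes, and Krt6a, Krt6b and Krt16 are keratins of wounded or thickened epidermis. Of 38 keratinocyte genes 11 rose, 7 of them in all 4 fits, 27 were not called and none fell, with a median of 0.99. Sprr2d, with its probe on chromosome 3 of mm9 from 92144721 to 92144780, stood at 6.56 and 6.75 in papilloma skin and at 10.76, 11.79 and 10.67 in papilloma. It rose by 4.42 (SE 0.42, limma adjusted p = 0.00097), or 21.4-fold, and its probe was well above background on 1 of 2 papilloma skin arrays and on all 3 papilloma arrays. Krt6b had levels of 6.40 and 6.76 against 11.29, 10.90 and 9.81, and rose by 4.08. Cnfn rose by 2.93 and Lce3c by 2.69, both kept. The 3 probes of Sprr2a2 disagreed, with changes from -0.32 to 4.35. Keratins of the basal layer did not pass the test, with 2.18 for Krt14 (SE 0.70, limma adjusted p = 0.113) and 1.00 for Krt5 (limma adjusted p = 0.369). The summed level of the list was 13.6 to 14.1 in papilloma skin and 14.8 to 15.7 in papilloma.

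The promoters of the Sprr genes are shown for TGANTCA, the site of AP-1 factors. The motif is its own reverse complement. It was in 6.87% of all promoters, in 5 of 8 (62.5%) of the keratinocyte genes that rose and in 2 of 14 (14.3%) of those not called, where 11 and 27 genes were listed. Shown are Sprr2d (chr3:92338890-92339139, plus strand), Sprr1b (chr3:92438780-92439029, minus strand) and Sprr1a (chr3:92485882-92486131, minus strand), 3 of the largest rises that hold the motif. The calls of Sprr1b and Sprr1a were not kept. For Sprr1a the scanner files gave 1.24 with ComBat and 4.73 over those 6 arrays of full slope. Capitals mark the motif, which lies at base -193 in Sprr2d, at -111 in Sprr1b, and at -146 and -116 in Sprr1a, counted back from the start. A match of letters is no evidence of binding.
Sprr2d: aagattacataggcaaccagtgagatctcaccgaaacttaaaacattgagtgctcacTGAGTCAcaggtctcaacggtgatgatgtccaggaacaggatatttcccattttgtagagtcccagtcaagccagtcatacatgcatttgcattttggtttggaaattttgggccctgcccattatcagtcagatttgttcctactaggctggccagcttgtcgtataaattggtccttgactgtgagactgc
Sprr1b: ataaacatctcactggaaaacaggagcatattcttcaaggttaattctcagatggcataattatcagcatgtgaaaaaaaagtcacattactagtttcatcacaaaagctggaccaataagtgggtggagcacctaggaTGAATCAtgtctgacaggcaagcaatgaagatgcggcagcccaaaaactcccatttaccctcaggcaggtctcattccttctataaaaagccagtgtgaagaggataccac
Sprr1a: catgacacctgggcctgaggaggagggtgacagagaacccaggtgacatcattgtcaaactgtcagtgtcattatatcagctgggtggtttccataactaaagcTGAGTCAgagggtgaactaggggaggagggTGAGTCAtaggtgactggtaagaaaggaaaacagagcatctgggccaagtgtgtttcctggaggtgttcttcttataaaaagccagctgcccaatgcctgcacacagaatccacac

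**Figure D3:**
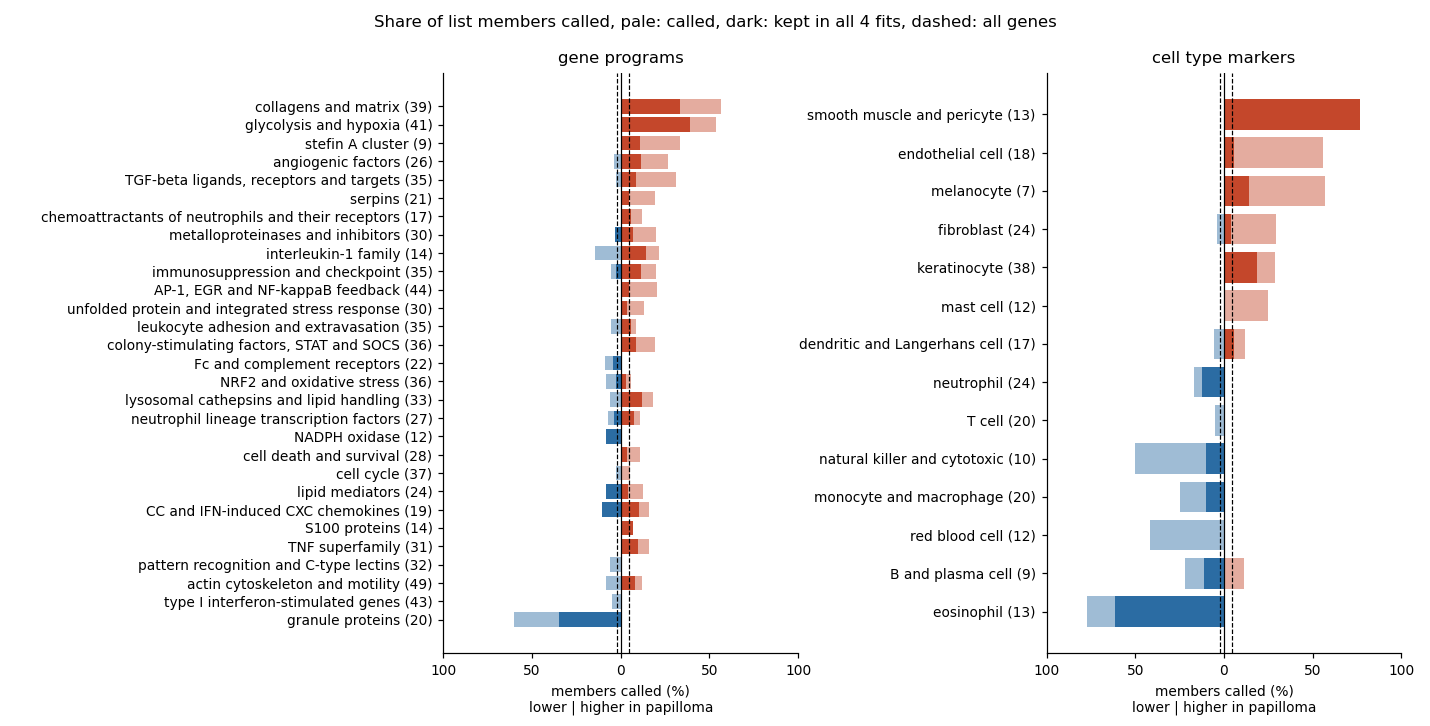
Percent of list members called lower (to the left) and higher (to the right) in papilloma, for 29 gene programs and 14 lists of cell type markers, with the number of members at a mean log2 level of at least 6 in brackets. Pale bars show calls, dark bars calls kept in 4 fits, and dashed lines the shares over all genes, 4.49% higher and 2.16% lower. Smooth muscle, melanocyte, matrix, endothelial and glycolysis lists reach farthest right, granule and eosinophil lists farthest left.

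Chemokines split by gene. Cxcl3, a ligand of the neutrophil receptor CXCR2, stood at 12.05 and 12.40 in papilloma skin and at 14.70, 15.03 and 15.03 in papilloma, and rose by 2.69 (SE 0.20, limma adjusted p = 0.000387). Cxcl5, another ligand of that receptor, rose by 1.82 and was not kept, and the list of 17 chemoattractants and receptors had no other call. Among the CC chemokines, Ccl3 and Ccl4, neighbouring genes on chromosome 11 whose products attract monocytes and T cells, rose by 1.87 and 1.88. Ccl6 and Ccl9, 2 related macrophage chemokines of the same chromosome, fell by 1.86 and 3.0. Ccl9 had levels of 14.27 and 13.64 in papilloma skin and of 11.21, 10.40 and 11.28 in papilloma. The 4 calls were kept. The scanner files gave each of these 6 genes the same sign, with ComBat and over those 6 arrays of full slope.

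In the interleukin-1 family, the ligand and its antagonist rose together. Il1a, an alarm cytokine, stood at 8.46 and 9.07 in papilloma skin and at 11.67, 12.44 and 11.82 in papilloma, and rose by 3.20 (SE 0.29, limma adjusted p = 0.000773). Il1rn, the natural antagonist of the receptor, rose by 1.76 (SE 0.21, limma adjusted p = 0.00281), and both were kept. Il1b, at 17.72 and 17.79 in papilloma skin and 17.76, 17.94 and 17.89 in papilloma, had a change of 0.11 (limma adjusted p = 0.698). Casp1, which cleaves pro-IL-1β, fell by 1.05 and was not kept. The receptor genes Il1r1 and Il1rl1 had changes of 1.69 and -1.60, called and not kept. For Il1rl1 the scanner files with ComBat gave 0.42, where all genes at this level had a median of 0.51.

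Some growth factors of the myeloid lineage and some of their feedback genes rose. Of 36 genes of colony-stimulating factors, STAT and SOCS, 7 (19.4%) rose, against 4.49% of all genes, none fell and 29 were not called. The median of the list was 0.25 in the table and 0.089 over those 6 arrays of full slope. Csf1, the growth factor of macrophages, stood at 11.01 and 11.02 in papilloma skin and at 13.05, 13.12 and 13.28 in papilloma, and rose by 2.14 (SE 0.13, limma adjusted p = 0.000168). Csf3, the growth factor of neutrophils, rose by 2.07, and Cish, an inhibitor induced by STAT5, by 2.0, and these 3 were kept. Il6 and Socs3 rose by 1.57 and 1.11 and were not kept. Of 31 genes of the TNF superfamily 5 rose. Tnfrsf26, Tnfrsf23 and Tnfrsf22, decoy-type receptors of the mouse encoded side by side on chromosome 7, rose by 2.76, 2.26 and 2.20 and were kept. Tnf rose by 1.31 with a limma adjusted p of 0.0491, which became 0.213 with slide as a block and the slides exchanged.

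Among genes known to restrain T cells, 7 of 35 (20%) rose and 2 (5.71%) fell, against 4.49% and 2.16% of all genes. Nos2, which makes nitric oxide from arginine, stood at 7.58 and 8.11 in papilloma skin and at 10.76, 10.90 and 10.55 in papilloma, and rose by 2.89 (SE 0.20, limma adjusted p = 0.000225). The receptor gene Havcr2, which encodes TIM-3, rose by 2.60 and Nt5e, which makes adenosine from AMP, by 2.25. Olr1, which encodes the scavenger receptor LOX-1, had levels of 8.73 and 8.94 against 10.96, 10.82 and 10.91, and rose by 2.06 (SE 0.16, limma adjusted p = 0.000436). These 4 calls were kept. Cd274, which encodes the ligand of the checkpoint receptor PD-1, rose by 1.35 (SE 0.22, limma adjusted p = 0.00973), Pdcd1lg2 by 1.64 and Cd47 by 1.08, and none of the 3 was kept. The adenosine receptor gene Adora2a fell by 3.31 (SE 0.32, limma adjusted p = 0.00109), from 10.36 and 10.07 in papilloma skin to 7.28, 6.43 and 7.02 in papilloma, a kept call. Arg1, at 8.77 and 7.17 in papilloma skin and 9.22, 9.64 and 10.50 in papilloma, had a change of 1.82 (SE 0.55) and did not pass the test (limma adjusted p = 0.0958).

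Of 24 genes at this level that the study itself named, 6 were called higher and 2 lower. A list chosen on these samples is no independent evidence of a direction. The integrin chain Itgax, also a marker of dendritic cells, rose by 1.87, with its call kept, like those of Nos2 and Olr1. Cxcl5, Cd274 and Tnf complete the rises. Ifng and Ly6c1 had changes of -1.74 and -1.73 with limma adjusted p of 0.0134 and 0.0304, neither kept. For Ifng the scanner files with ComBat gave 0.33, where all genes at this level had a median of 0.51.

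Genes of tissue remodelling rose in part, where 4.49% of all genes were called higher and 2.16% lower. Of 35 genes of TGF-β signaling, 11 rose and 1 fell. The connective tissue growth factor Ctgf stood at 7.82 and 7.65 in papilloma skin and at 10.25, 10.11 and 10.01 in papilloma, and rose by 2.39 (SE 0.21, limma adjusted p = 0.000694). Inhba, which encodes activin A, rose by 1.83 and the feedback inhibitor Smad7 by 1.72, and these 3 were kept. Of 30 metalloproteinases and inhibitors, 6 rose and 1 fell. The stromelysin Mmp11 rose by 2.74, from 6.30 and 5.87 to 8.86, 8.61 and 8.98, and the aggrecanase Adamts4 by 2.05, both kept, while Plau, the plasminogen activator, rose by 1.76. Of 26 angiogenic factors 7 rose and 1 fell. Hbegf, a ligand of the EGF receptor, rose by 2.81, osteopontin (Spp1) by 2.87 and the vessel-destabilizing Angpt2 by 2.38, all kept. Thbs1, an inhibitor of vessel growth and an activator of TGF-β, fell by 1.18 in the table, whereas the scanner files with ComBat gave 0.72.

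Early response and stress genes rose in smaller numbers, where 4.49% of all genes were called higher. Of 44 genes of AP-1, EGR and NF-κB feedback, 9 rose and none fell. Egr1 rose by 2.18, from 13.84 and 13.56 in papilloma skin to 15.70, 16.14 and 15.82 in papilloma, and kept its call, as did the small Maf factor Maff with 1.58. Jun rose by 1.46 and Egr2 by 1.67, neither kept. Of 28 genes of cell death and survival 3 rose. Bcl2l1, which encodes the survival factor BCL-XL, rose by 2.03 (SE 0.18, limma adjusted p = 0.000773) and was kept. Cflar, which blocks caspase 8, rose by 1.03, and Bcl2l11, which promotes cell death, by 1.13. The stress gene Ddit4, an inhibitor of mTORC1, rose by 2.45 (SE 0.13, limma adjusted p = 0.000105). Of lysosomal and lipid genes, the acid phosphatase Acp5 rose by 2.60 and the cholesterol exporter Abca1 by 2.16, both kept. Cstb, a cytosolic inhibitor of cathepsins, rose by 2.0, and all 9 members of the stefin list had a change above 0, with 3 called.

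Several programs had few calls, where 4.49% of all genes were called higher and 2.16% lower. Of 43 type I interferon-stimulated genes none rose and 2 fell, with a median of -0.39 in the table, of -0.48 over those 6 arrays of full slope and of 0.73 in the scanner files with ComBat. In the last setting all genes at this level had 0.51. Of 32 pattern recognition genes none rose and 2 fell, of 22 Fc and complement receptors none rose and 2 fell, and of 12 genes of the NADPH oxidase Cybb alone was called. Of 37 cell cycle genes 2 rose, the cyclin Ccnd1 (2.18) and the inhibitor Cdkn1a (1.91), and 1 fell. Of 35 adhesion genes 3 rose and 2 fell, the latter being the integrin chains Itga4 (-1.25) and Itgb7 (-2.21), which pair with each other. Of 24 genes of lipid mediators, 3 rose, among them Ltc4s (2.21), which makes leukotriene C4, and 2 fell, the thromboxane synthase Tbxas1 (-1.43) and Alox15 (-3.41), a lipoxygenase of eosinophils and macrophages.

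**Figure D4:**
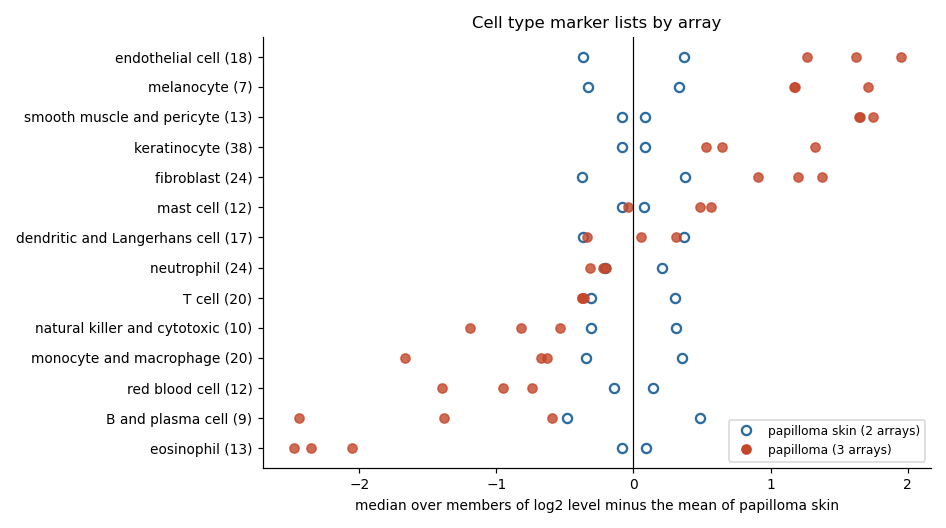
Median over the members of each marker list (number in brackets) of the log2 level minus the mean of papilloma skin (x axis), for each array. Open circles are papilloma skin and filled circles papilloma; the eosinophil list lies between -2.48 and -2.05 in papilloma, the smooth muscle and pericyte list between 1.64 and 1.74, and the neutrophil list between -0.32 and -0.20.

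Eosinophil genes were lower in papilloma. Of 13 eosinophil genes 10 fell, 8 of them in all 4 fits, with a median of -2.29. Ear2, a ribonuclease of eosinophil granules, had levels of 13.22 and 12.72 in papilloma skin and of 9.27, 8.38 and 9.65 in papilloma, and fell by 3.87 (SE 0.43, limma adjusted p = 0.00201). Ccr3, the eotaxin receptor, fell by 2.29, from 10.68 and 10.59 to 8.16, 8.59 and 8.29. Il5ra, the receptor for the main growth factor of eosinophils, fell by 1.95. The defining genes Epx, Prg2 and Prg3 were not well above background on every array of either group. The Ear genes share much sequence, so that their probes may read one another. The summed level of the list was 15.6 in papilloma skin and 15.5 to 15.9 in papilloma. Its highest member by level, the myeloid receptor Cd300lf, had 14.54 on papilloma skin 1 and 15.69 on papilloma 3 and was not called. Retnla, a secreted factor of alternatively activated macrophages and of eosinophils, stood at 13.69 and 13.46 in papilloma skin and at 8.66, 8.32 and 8.90 in papilloma.

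Immunoglobulin transcripts were among the largest falls. Among 92 array names at this level that are described as immunoglobulin heavy or light chains, a set formed after the values were seen, 56 fell, 30 of them in all 4 fits, and none rose, with a median log2 fold change of -2.91. Igj stood at 14.53 and 13.24 in papilloma skin and at 7.88, 5.78 and 7.87 in papilloma, and fell by 6.71 (SE 0.77, limma adjusted p = 0.00229). The B cell kinase gene Blk was not well above background on every array of either group. Of 10 genes of natural killer and cytotoxic cells 5 fell, and Gzmc alone was kept. Gzmc had levels of 13.80 and 13.13 against 8.74, 7.41 and 9.31. Of 20 genes of monocytes and macrophages 5 fell, of which Emr1, an adhesion receptor of macrophages that eosinophils share, kept its call with a fall of 3.01, as did Lyz1. Of 20 T cell genes 1 fell and was not kept. Of 12 genes listed for mast cells 3 rose, none kept. The largest of these rises, 2.07 for the protease Mcpt8, came from a probe well above background on 1 of 2 papilloma skin arrays. Of 17 dendritic and Langerhans cell genes 2 rose (1 kept) and 1 fell. The B and plasma cell list had 2 falls and 1 rise, that of Prdm1 (1.05, not kept), a factor of plasma cells that other leukocytes share.

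Markers of the sorted cells themselves moved less. All 24 neutrophil markers were well above background on every array of both groups. Of these 4 fell, namely Camp, Ngp, Ltf and Mmp8, and the median was -0.22. The summed level was 20.5 to 20.8 in papilloma skin and 20.5 to 20.6 in papilloma. The summed level of the natural killer and cytotoxic list was 13.5 to 14.2 in papilloma skin and 10.4 to 11.2 in papilloma, that of the B and plasma cell list 13.7 to 14.8 and 11.5 to 11.6, and that of the red blood cell list 17.6 to 18.3 and 14.9 to 16.2. Of 12 red blood cell genes 5 fell, and of 7 melanocyte genes 4 rose. None of the 5 red blood cell calls and 1 of the 4 melanocyte calls were kept, and without papilloma skin 1 the red blood cell list had 1 fall. For 5 marker lists the scanner files with ComBat gave a median of the other sign, namely melanocyte (1.35 in the table and -0.23), dendritic and Langerhans cell (-0.013 and 1.5), monocyte and macrophage (-0.90 and 0.13), natural killer and cytotoxic (-0.77 and 0.31) and T cell genes (-0.40 and 0.31). All genes at this level had a median of 0.51 in that setting, above all of these but the dendritic and Langerhans list. Over those 6 arrays of full slope, with papilloma skin 2 alone for the skin, the medians in the same order were 1.04, -0.224, -0.309, -0.765 and 0.109. All genes at this level had 0.035 there. Only the T cell list differed in sign from the table. The part of these other cell types in the changes of the gene programs was not tested.

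The same contrast at the tumor stage, tumor against tumor skin, shared slides and, by the sample titles, no arrays with this one. In the table, however, the column papilloma skin 1 ranked nearest to the scanner file of tumor 2, so that the 2 contrasts cannot be taken as independent. Of the 1251 called genes, 1194 (95.4%) had the same sign there, as did 69.1% of all genes at this level, and 680 were also called in the same direction. Opposite calls were made for 10 genes. Side by side, the median log2 fold change at the papilloma and tumor stages was 1.24 and 1.40 for glycolysis and hypoxia, -1.39 and -1.42 for granule proteins, 1.41 and 0.69 for matrix, -2.29 and -1.89 for eosinophil genes, and 1.75 and 0.13 for smooth muscle and pericyte genes. Between the stages, the lesion effect differed for 31 genes (0.165%), 22 of them higher at the papilloma stage. Of the 13 smooth muscle and pericyte genes 5 were among them, with Actg2 at 2.69, Cspg4 at 2.48, Tagln at 2.13, Acta2 at 2.06 and Notch3 at 1.98, though Actg2 had -0.47 over those 6 arrays of full slope. Among those arrays, papilloma skin 2, tumor 2 and tumor skin 2 were alone in their groups. The melanocyte enzyme Dct differed by 3.54 (SE 0.45, limma adjusted p = 0.0428) and the hemoglobin gene Hba-a1 by -4.77, since it fell by 2.06 at the papilloma stage and rose by 2.71 at the tumor stage. No difference was called with slide as a block (2405 genes had an unadjusted p under 0.05) or in the scanner files with ComBat (10881 genes).

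**Figure D5:**
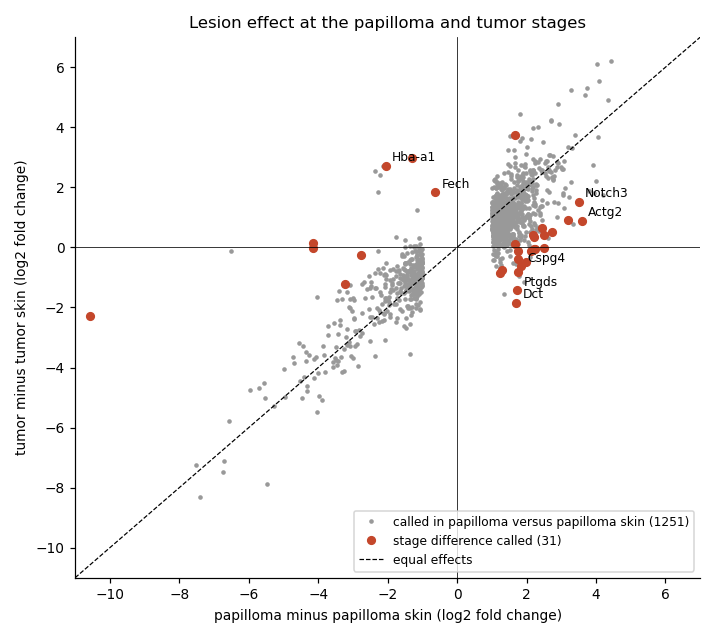
Log2 fold change of papilloma minus papilloma skin (x axis) against that of tumor minus tumor skin (y axis) for the 1251 genes called in the former (grey) and the 31 genes with a called difference between the stages (red). The dashed line marks equal effects; the red points at right lie below it except 1, among them Dct, Ptgds, Actg2, Cspg4 and Notch3, and Hba-a1 and Fech lie above it.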

How the data were processed

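Neutrophil RNA was measured on 9 one-color Agilent SurePrint mouse arrays with mm9 probe positions. The authors deposited scanner files, with an intensity for every spot from which the scanner software had already taken the background, and a table of log2 values by probe and array. Per the methods, limma's quantile normalization was followed by ComBat to take out differences between chips, and whether the table holds both steps is not given in the sources used here. The table's 55681 rows were matched to probe names, and a gene's value is the median over the probes of its name, for 34797 names, of which 19985 are RefSeq symbols.

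limma was fitted to all 9 columns and 4 groups. Groups came from the sample titles. As a check, scanner intensities were log2 transformed, quantile normalized and corrected for slide with a ComBat written for this purpose. The number of arrays limits the precision. On simulated data of 34797 genes with the papilloma comparison, the model used for the table recovered 66% of shifts of 1.5 on the log2 scale. It recovered 96% of shifts of 3 and called 3 of the unchanged genes. With slide shifts added and taken out by ComBat, which the methods name, it recovered 90% and 99% and called 92 of the unchanged genes. With slide as a term instead, it recovered 40% and 85% and called 1. The simulated noise was independent between columns, whereas 97.8% of the variance within groups of the table lay in 3 dimensions. These counts therefore do not give the error rate of the fit of the table.

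Named are the 15 largest rises and falls among called genes with signal above background, whose names are not probe, LOC, Ensembl, clone or predicted-gene identifiers (GenBank and RefSeq accessions were not removed), list members, genes the study named, and the 3 largest stage differences per direction, of which 1 is not reported here. The 29 program and 14 marker lists and the comparison itself were chosen with earlier results of these data known. Other settings, among them the leaving out of each of the 9 columns and 2 chosen after the data were seen, are described at the end. Fits used limma 3.58.1 in R 4.3.3, and counts and plots used pandas 2.3.3 and matplotlib 3.10.9 in Python 3.11.15.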

Additional observations from a re-analysis of the deposited data

Results flagged for a closer look

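The effect of the lesion differed between the papilloma and tumor stages for 5 genes among those with the largest difference in each direction, tested as an interaction in limma. On the log2 scale the melanocyte enzyme Dct differed by 3.54, the prostaglandin synthase Ptgds by 3.17 and smooth muscle actin Actg2 by 2.69, all higher at the papilloma stage, with limma adjusted p of 0.0428, 0.0318 and 0.0219. The hemoglobin gene Hba-a1 differed by -4.77 and Fech, the last enzyme of heme synthesis, by -2.46, with limma adjusted p of 0.0428 and 0.0235. In none of the fits with a slide or replicate block, of the scanner files or without tumor 1 was any gene called for this difference.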

How the results depend on the processing

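Numbers of genes called higher and lower in papilloma were 844 and 407, and of genes with a stage difference 31. With slide as a block the table gave 519, 247 and 0, with the slides of papilloma 2 and 3 exchanged 289, 110 and 0, and without the columns papilloma skin 1 and tumor 1 530, 279 and 0. Leaving out 1 column at a time gave 598 to 862 higher, 279 to 435 lower and 0 to 10 stage differences. The fewest higher calls came without papilloma skin 1 and the fewest lower calls without papilloma skin 2, and stage differences were none without tumor 1 or tumor 2, 2 without papilloma skin 1 or any 1 papilloma column, 4 without either tumor skin column and 10 without papilloma skin 2. In the scanner files, quantile normalization with ComBat gave 2172, 596 and 0, the 75th percentile with ComBat 3464, 765 and 0, and normexp with ComBat 1799, 1016 and 0. With slide as a term, without a slide correction, or over the 6 arrays of full spike-in slope, limma called 0 genes in either direction and 0 stage differences, where 4102, 3340 and 4585 genes had an unadjusted p under 0.05. The median over genes at each setting's own level minimum moved from 0.0088 in the table to 0.45 with ComBat and 0.61 with the 75th percentile. Stage differences were 18 at a level minimum of 7 and 15 over probes.

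The replicate number as a block gave 306 genes higher, 132 lower and 0 stage differences. The numbers were not taken as pairing the samples, since the deviations of same-numbered papilloma and papilloma skin columns correlated at 0.218 and 0.574 over only 2 pairs, and those of the other same-numbered columns between -0.942 and 0.417.

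Some named genes turned in sign. With the probe of highest level, Sprr2a2 had -0.32. In the scanner files Thbs1 had 0.72 with ComBat, 0.71 with slide as a term, 0.77 without correction, 0.74 with the 75th percentile and 0.55 with normexp. With ComBat, slide as a term and no correction, in this order, Cybb had 0.13, 0.15 and 0.033, Il1rl1 0.42, 0.58 and 0.76, and Ifng 0.33, 0.28 and 0.66. Without correction Mpo had 0.047 and Cdkn1a -0.00039. With the 75th percentile Taldo1 had 0.23, Casp1 0.45 and Ly6c1 0.097. The median over all genes at the level minimum was 0.453 with ComBat, 0.448 with slide as a term, 0.452 without correction and 0.615 with the 75th percentile. The values of Cybb, Mpo, Taldo1, Casp1 and Ly6c1 lay below these medians. So did Il1rl1 with ComBat, and Ifng with ComBat and with slide as a term. Over the 6 arrays, where papilloma skin 2, tumor 2 and tumor skin 2 were alone in their groups, the stage difference of Actg2 was -0.47. The causes were not tested. Signals above background on 95.0% of spots and a low spike-in slope limit what papilloma skin 1 can show.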
